A study of Mus musculus with 11 samples.

Results

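The genes described here are 60 mouse genes whose symbols begin with Klhl, Kbtbd, Kctd, Btbd or Zbtb followed by a digit, the naming families of proteins that carry a BTB domain. A gene was included when at least 1 of its probes was detected (a detection p-value below 0.01 in the scanner table) on 2 or more of 11 arrays, and 1 gene of the name set is left out by the rule. Of 108 genes with such a name and a probe on the array, 60 passed and 48 did not; the 60 are among 8952 genes tested in all. They comprised 13 of 35 Klhl genes, 5 of 7 Kbtbd genes, 9 of 16 Kctd genes, 8 of 12 Btbd genes and 25 of 38 Zbtb genes. The members were chosen by name and on their detection p-values, and the group was selected on the lower log2 signals of most Klhl genes with LPS/IFNg in these same arrays, so the Klhl values in every comparison that uses the LPS/IFNg arrays are given as a description with no test, and the question put to the data was whether the other families behave alike. 1 member, Zbtb8os, shares the name prefix but encodes archease, a tRNA ligation factor and not a BTB protein.

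The arrays measured RNA from cultured primary microglia, the resident macrophages of the brain, taken from newborn C57BL/6J mice. The groups were cells given LPS/IFNg for 16 h (lipopolysaccharide at 100 ng/ml with interferon gamma at 20 ng/ml, 2 arrays, replicates 1 and 3), cells given IL-4 for 48 h (100 U/ml, 3 arrays), cells given TGFb for 48 h (20 ng/ml, 3 arrays) and untreated cells (3 arrays, with no culture time in the labels). LPS/IFNg is a classical proinflammatory stimulus, IL-4 a stimulus of alternative activation, and TGFb a factor that microglia need for their resting state. All values below are normalized log2 signals, and a difference is the mean of the first group minus the mean of the second.

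The BTB domain is a protein interaction fold that forms dimers in many, though not all, of these proteins. In the Klhl, Kbtbd and several Btbd and Kctd proteins it binds the scaffold Cul3, so that the rest of the protein, often a Kelch propeller, brings a substrate to a ubiquitin ligase. In the Zbtb proteins the same fold sits before zinc fingers, and most of these act as DNA-binding transcription factors that recruit corepressors.

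The 11 arrays detected 12427 to 14200 probes each, and the number of members detected per array was 46 and 43 with LPS/IFNg, 51 to 54 with IL-4, 50 to 51 with TGFb and 51 to 52 in untreated cells. Of 9 microglia markers 8 could be tested, and their mean was 10.05 and 9.59 on the LPS/IFNg arrays, 10.75 to 11.06 with IL-4, 11.27 to 11.96 with TGFb and 11.07 to 11.96 in untreated cells. These markers did not move alike. With LPS/IFNg, Csf1r, Cx3cr1, Trem2 and P2ry12 lay below all untreated arrays, Cx3cr1 at 8.07 and 6.05 against 11.99 to 13.07. Aif1 lay above them, at 12.47 and 12.74 against 10.96 to 11.54, and Itgam, C1qa and C1qb overlapped. In such whole-culture RNA, fewer cells of a type and less RNA per cell cannot be told apart. IL-4 replicate 1 stood apart: its mean over the 4 testable fibroblast and mural markers of 9 was 8.19, against 4.76 to 6.04 on the other 10 arrays, with 4 of 4 detected, and its mean over 5 testable astrocyte markers of 6 was 6.57, against 4.56 to 5.30. Other markers moved with whole groups. Pecam1, the 1 testable endothelial marker of 4, which myeloid cells also express, read 7.78 and 7.25 with LPS/IFNg, 7.17 to 9.50 with IL-4, 4.59 to 5.53 with TGFb and 5.30 to 6.51 in untreated cells. Rbfox3, the 1 testable neuronal marker of 5, read 4.76 and 4.62 with LPS/IFNg, 5.33 to 6.00 with IL-4, where all 3 arrays detected it, 4.55 to 4.80 with TGFb and 4.59 to 5.10 in untreated cells. The 3 testable oligodendrocyte markers of 6 did not move alike. Mbp read 6.53 and 6.38 with LPS/IFNg, 8.97 to 9.54 with IL-4, 10.01 to 10.12 with TGFb and 9.98 to 10.13 in untreated cells. Mag went the other way, with 8.87 and 8.45 with LPS/IFNg and 6.42 to 7.71 elsewhere. Olig1 read 4.45 and 4.43 with LPS/IFNg and 4.35 to 5.62 elsewhere. The mean of the 3 was 6.62 and 6.42 with LPS/IFNg and 6.82 to 7.56 elsewhere. The part of other cell types in the results below was not tested. None of 3 lymphocyte markers passed the filter. The arrays lay on 2 slides, with all untreated arrays on slide 2. Nothing in the labels ties replicates to separate cultures or animals, so each p-value reflects the spread among these arrays, which may be technical.

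With LPS/IFNg, 12 of the 13 Klhl genes had a lower mean than in untreated cells and 11 were lower by more than 1 log2 unit, which describes how the group was chosen. The 11 include Klhl3, Klhl42 and Klhl8, undetected with LPS/IFNg, whose detection bounds given below do not reach 1 log2 unit. Across all genes, counted the same way, 53.9% had a difference below 0 and 15.5% a difference below -1. The median difference was -1.12 over the Klhl genes and -0.07 over all genes, and it was -1.10 for Klhl when the 3 members undetected with LPS/IFNg were set at their detection bound. Both LPS/IFNg arrays lay below all the other 9 arrays for 11 of the 13 Klhl genes, as they did for 25.3% of all genes.

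Klhl24, a Cul3 adaptor known for keratin 14 turnover in skin, differed most. Its log2 signal was 6.61 and 6.98 on the LPS/IFNg arrays, against 10.29, 10.36 and 10.44 on the untreated arrays. The LPS/IFNg arrays were low throughout and did not come near the others, a difference of -3.57 or 11.9-fold lower. It was 9.68 to 9.93 with IL-4 and 10.43 to 10.98 with TGFb. With slide as a term in the model the difference was -3.39, and on slide 2 alone it was -3.38.

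Klhl25, an adaptor for the translation repressor 4E-BP1, had signals of 7.09 and 6.59 with LPS/IFNg, against 8.28, 8.22 and 8.88 in untreated cells, a difference of -1.62. Klhl21, which acts on aurora B in cytokinesis, had 7.12 and 6.62 with LPS/IFNg, against 8.41, 8.53 and 8.52 in untreated cells, a difference of -1.62. Klhl22, an adaptor for PLK1 and for the mTORC1 regulator DEPDC5, had 5.55 and 6.15 with LPS/IFNg, against 7.12, 7.33 and 7.67 in untreated cells, a difference of -1.52. In each of these genes the groups were separated with no overlap. Such separation of the LPS/IFNg from the untreated arrays was common, with 3124 genes lower and 2526 higher of all 8952. This applies also to the separations from untreated cells given below for the other families. Klhl3, the adaptor for WNK kinases, was not detected with LPS/IFNg, where its probe read 4.35 and 4.30, against 5.97, 6.16 and 5.83 in untreated cells, which gives at least 1.53-fold lower. Klhl42, which targets the microtubule-severing enzyme katanin, was also undetected with LPS/IFNg at 4.67 and 4.36, against 5.55, 6.47 and 6.11 in untreated cells, at least 1.59-fold lower.

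The other Klhl genes were lower by smaller amounts or not at all. Klhl7 had a difference of -1.12, Klhl5 of -1.11, Klhl9, a partner of Cul3 in mitosis, of -1.10, and the actin-associated Klhl17 of -1.07. Klhl8 was undetected with LPS/IFNg, with 4.48 and 4.95, against 5.25, 6.09 and 5.81 in untreated cells, at least 1.28-fold lower. The 2 exceptions were Klhl15, an adaptor for a PP2A subunit, and Klhl18, an adaptor for aurora A. Klhl15 had 5.63 and 5.24 with LPS/IFNg, against 5.78, 5.23 and 5.62 in untreated cells, and Klhl18 had 6.03 and 6.35, against 6.14, 5.81 and 6.33. In both genes the arrays of the groups were interleaved, with differences of -0.11 for Klhl15 and 0.10 for Klhl18, and the Klhl18 value became -0.25 under median scaling.

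**Figure D1:**
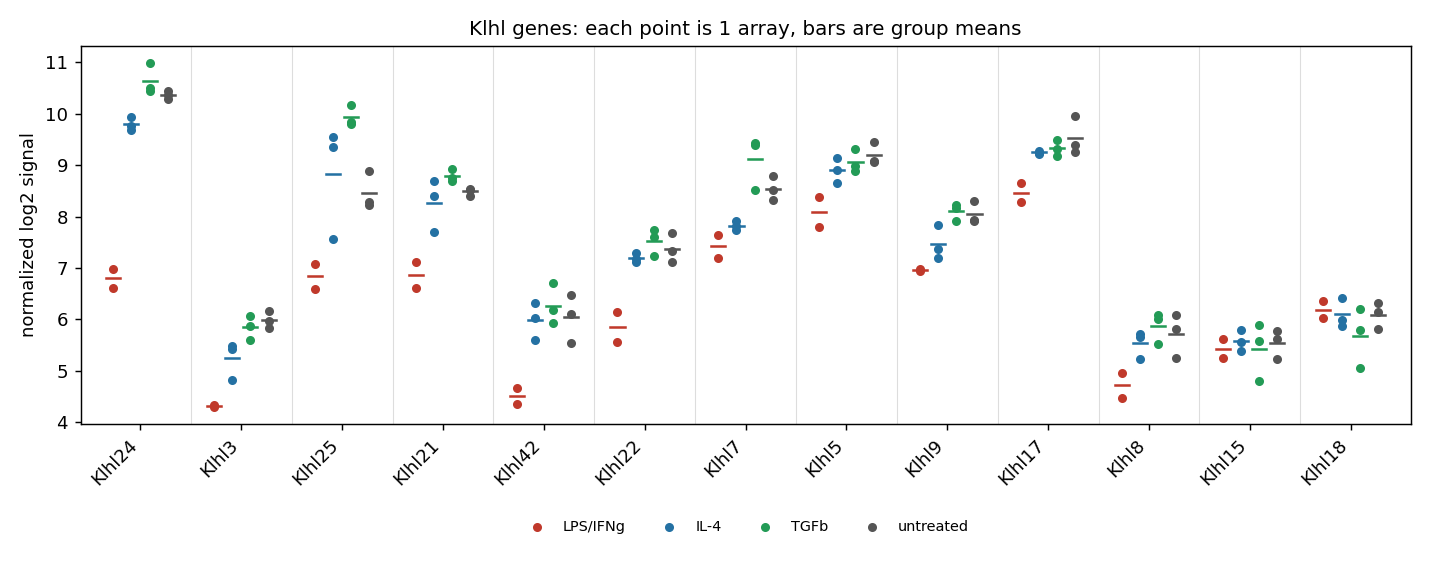
Normalized log2 signal (vertical axis) of the 13 Klhl genes (horizontal axis, ordered by the LPS/IFNg minus untreated difference), with 1 point per array, bars for group means, and the groups LPS/IFNg, IL-4, TGFb and untreated from left to right within each gene. For 11 genes both LPS/IFNg points lie below all other points, and for Klhl15 and Klhl18 they do not.

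Different probes of 1 Klhl gene did not always move alike. The 3 passing probes of Klhl24 had differences of -3.57, -1.33 and -1.23, and the 2 probes of Klhl9 had -1.10 and -1.34. The second probe of Klhl25, which is dimmer, had a difference of 0.35, opposite to the -1.62 of the probe that represents the gene. Klhl5 had 4 passing probes with differences of -1.11, -0.94, -0.34 and 1.00. The values of Klhl25 and Klhl5 given above are those of the probe with the highest mean.

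Outside the Klhl genes the response to LPS/IFNg went both ways. Of the 47 members of the other 4 families, Btbd7 and Zbtb32 were detected on no array outside the LPS/IFNg group and could pass the detection filter only by being high there, so their values with LPS/IFNg are given as a description with no test. Of the other 45 members, 9 fell, 5 rose and 31 did not pass the test (limma, Benjamini-Hochberg over all 8952 genes, adjusted p below 0.05). These shares, 20% lower and 11.1% higher, stand beside 23.5% lower and 17.5% higher among all genes, and the median difference over the 45 was 0.06. The 9 include Zbtb8a, which could pass the detection filter only by being detected in untreated cells, so its fall is a description with no test. Genes like Zbtb8a were not taken out of the shares of all genes. At an unadjusted p below 0.05 the counts were 12 lower and 6 higher of 45, beside 27.9% lower and 21.1% higher among all genes. Neither share of these members exceeded that of all genes, but genes detected only with LPS/IFNg were not taken out of the shares of all genes. With Btbd7 and Zbtb32 kept, 14.9% of 47 members were higher and 19.1% lower at the adjusted threshold, also below the shares of all genes. Both LPS/IFNg arrays were below all other arrays for 2 of 9 Kctd, 2 of 8 Btbd, 5 of 25 Zbtb and 0 of 5 Kbtbd genes, beside 25.3% of all genes. They were above all other arrays for 2 Kctd, 1 Btbd, 2 Zbtb and 0 Kbtbd genes, Btbd7 and Zbtb32 included, beside 19.4% of all genes. On slide 2 alone, which leaves 1 LPS/IFNg array, 5 of the 47 were lower and 5 higher, Btbd7 and Zbtb32 among the higher, beside 15.0% lower and 10.4% higher among all genes in that fit.

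**Figure D2:**
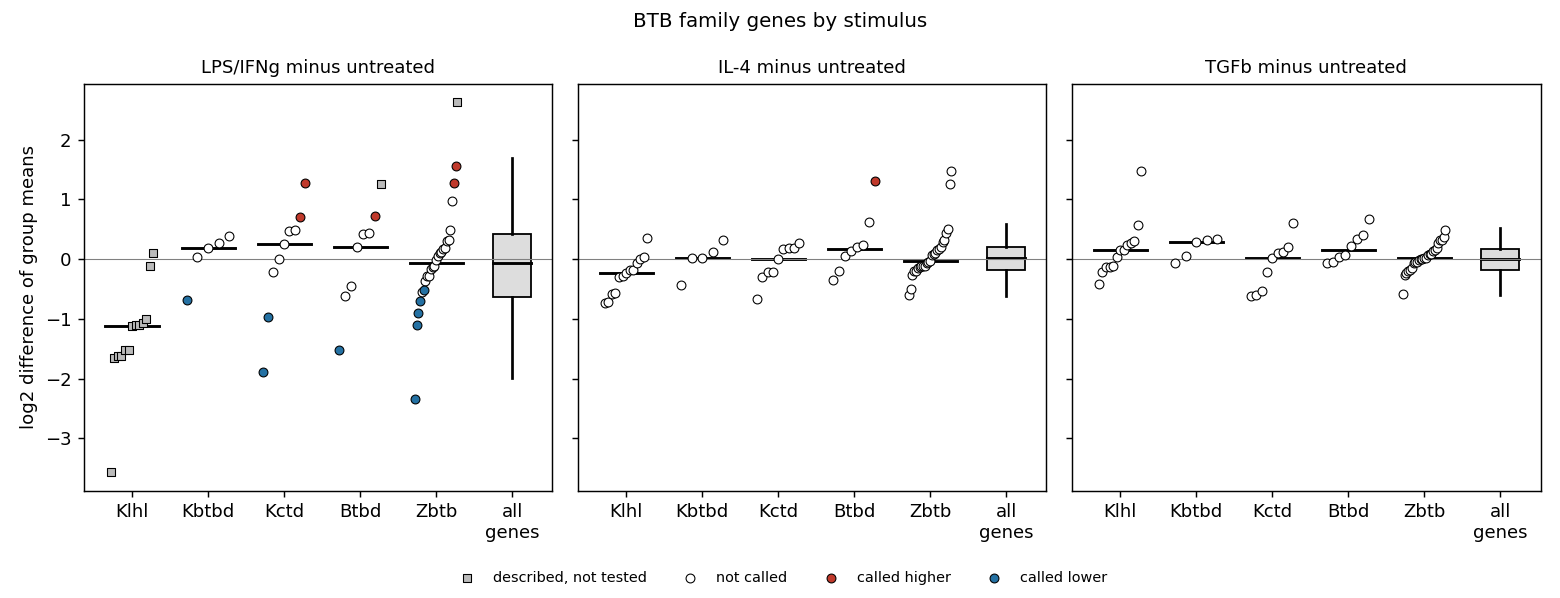
Log2 difference of group means (vertical axis) for each member by family, for LPS/IFNg, IL-4 and TGFb minus untreated in 3 panels; squares (Klhl, Btbd7 and Zbtb32 with LPS/IFNg) were described and not tested, filled circles were called higher (red) or lower (blue), bars are medians (without Btbd7 and Zbtb32 in the LPS/IFNg panel), and the last column shows the median, the quartiles and the 5th to 95th percentiles of all 8952 genes. In the LPS/IFNg panel the Klhl median is -1.12 while the medians of the other families lie between -0.06 and 0.25.

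The Kbtbd genes encode Kelch proteins built like the Klhl group, and 1 of 5 fell with LPS/IFNg while none rose; their median difference was 0.18. Kbtbd7, which with Kbtbd6 brings the Rac activator TIAM1 to Cul3, had 7.24 and 7.28 with LPS/IFNg, against 7.91, 7.81 and 8.10 in untreated cells, with no overlap (-0.68 ± 0.18 SE, limma adjusted p = 0.0116). Its second probe had -0.48 and was not called, and the call was lost without LPS/IFNg replicate 1 (adjusted p = 0.0639), without LPS/IFNg replicate 3 (0.0538) and on slide 2 alone (0.106), all in limma. Kbtbd2, an adaptor for the p85alpha subunit of PI3 kinase, had 9.51 and 9.53 with LPS/IFNg, against 9.11, 9.59 and 9.33 in untreated cells, and the groups overlapped (difference 0.18). Kbtbd4 had a difference of 0.39 and Kbtbd8, a regulator of neural crest specification, of 0.04. No LPS/IFNg or untreated array detected Kbtbd6.

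Among the 9 Kctd genes 2 rose and 2 fell, with a median difference of 0.25 that was -0.003 under median scaling. Kctd12 and Kctd12b, paralogs whose products are auxiliary subunits of GABA-B receptors, went opposite ways. Kctd12 had 11.71 and 12.18 with LPS/IFNg, against 10.61, 10.36 and 11.05 in untreated cells, 1.28 ± 0.26 higher (SE, limma adjusted p = 0.00298), and its second probe rose by 1.72. Kctd12b was undetected with LPS/IFNg at 4.43 and 4.59, against 6.12, 6.85 and 6.22 in untreated cells, at least 2.04-fold lower (limma adjusted p = 0.00455), and its second probe also fell. For both genes the LPS/IFNg arrays were separate from all 9 other arrays.

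Kctd2 had 8.57 and 8.51 with LPS/IFNg, against 9.57, 9.41 and 9.53 in untreated cells (-0.96 ± 0.16 SE, limma adjusted p = 0.000865). Kctd20, linked to Akt signalling, had 8.65 and 8.66 with LPS/IFNg, against 7.87, 7.84 and 8.15 in untreated cells (0.70 ± 0.15 SE, limma adjusted p = 0.00386). Neither gene overlapped between the groups, although of the 4 Kctd20 probes 2 were called and the others had differences of 0.62 and 0.16. The Kctd20 call was lost under median scaling (difference 0.52, limma adjusted p = 0.0847) and on slide 2 alone (0.0966). Kctd5, which brings G protein beta-gamma subunits to Cul3, had a difference of 0.49 (limma adjusted p = 0.0542). Kctd10 had -0.22, the Hedgehog regulators Kctd21 and Kctd6 had 0.25 and 0.002, and Kctd9 had 0.47, none of which passed the test.

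Of the 7 Btbd genes tested with LPS/IFNg 1 rose and 1 fell, with a median difference of 0.21. Btbd6, known from zebrafish for neurogenesis through the factor Plzf, had 6.45 and 6.50 with LPS/IFNg, against 8.00, 7.91 and 8.12 in untreated cells. It fell by 1.53 on the log2 scale (SE 0.27, limma adjusted p = 0.00123), and its second probe by 1.57. Btbd7, known for branching of epithelia, had 6.09 and 5.95 with LPS/IFNg and was undetected in untreated cells at 4.95, 4.75 and 4.59, at least 1.93-fold higher with no test. Btbd19 had 5.70 and 5.38 with LPS/IFNg, against 4.73, 5.16 and 4.58 in untreated cells (0.72 ± 0.20 SE, limma adjusted p = 0.0161), and was detected on 1 array of each group. That call was lost in 6 of 23 alternative settings. The difference was 0.18 without background correction, 0.17 in the authors' deposited table of values, 0.46 under median scaling and 0.56 both on slide 2 alone and without LPS/IFNg replicate 1, and it was 0.60 without untreated replicate 3.

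The remaining Btbd genes did not pass the test. Btbd3, which directs dendrite orientation in neurons, was undetected with LPS/IFNg at 4.44 and 4.68, against 5.27, 5.09 and 5.19 in untreated cells, a separation that gave a limma adjusted p of 0.0661. Btbd1, a topoisomerase I partner, had a difference of -0.45, Btbd9, known for restless legs association in humans, of 0.45, Btbd11 of 0.42 and the Akt regulator Btbd10 of 0.21.

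In the Zbtb family, the largest with 25 members, 24 were tested with LPS/IFNg: 5 fell, 2 rose and 17 did not pass the test, with a median difference of -0.06. The 5 include Zbtb8a, whose fall is a description for the reason given below. Zbtb32, a repressor of GATA3-driven cytokine genes in lymphocytes, was detected with LPS/IFNg only. It had 6.95 and 7.27 with LPS/IFNg, against 4.45, 4.44 and 4.56 in untreated cells, where it was undetected, and it read 4.30 to 4.38 with IL-4 and 4.27 to 4.33 with TGFb. It was at least 4.11-fold higher with LPS/IFNg than in untreated cells, a description with no test. Zbtb5, a repressor of the cell cycle inhibitor p21, had 7.73 and 8.07 with LPS/IFNg, against 6.63, 5.99 and 6.42 in untreated cells (1.56 ± 0.46 SE, limma adjusted p = 0.019). Zbtb3 had 6.47 and 6.59 with LPS/IFNg, against 5.32, 5.17 and 5.26 in untreated cells (1.28 ± 0.24 SE, limma adjusted p = 0.00154). Neither Zbtb5 nor Zbtb3 overlapped between the groups, but the Zbtb5 call was lost without LPS/IFNg replicate 1, without LPS/IFNg replicate 3 or without untreated replicate 2.

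Zbtb20, known as the repressor of alpha-fetoprotein in liver and as a factor in hippocampal development, had the lowest difference outside Klhl. It was undetected with LPS/IFNg at 4.65 and 4.52, against 7.01, 7.42 and 6.36 in untreated cells, at least 2.95-fold lower (limma adjusted p = 0.000304). Its second, dimmer probe had a difference of -0.55 and was not called (adjusted p = 0.323 with every probe tested in limma). Zbtb39 had 5.77 and 5.56 with LPS/IFNg, against 6.60, 6.91 and 6.77 in untreated cells (-1.10 ± 0.19 SE, limma adjusted p = 0.000882). Zbtb8a was undetected with LPS/IFNg at 4.32 and 4.26, against 4.96, 5.22 and 5.38 in untreated cells. There 2 of 3 arrays detected it, and its bound allows no fold. Outside the untreated group only 1 IL-4 array detected Zbtb8a. It could thus pass the detection filter only by being detected in untreated cells, so its fall is a description with no test. On slide 2 alone, which leaves 1 LPS/IFNg array, its difference was -0.93. In all 3 genes the LPS/IFNg arrays were the lowest of the 11.

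The other Zbtb calls were smaller. Zbtb25 had 6.29 and 6.42 with LPS/IFNg, against 6.998, 6.91 and 6.73 in untreated cells (-0.52 ± 0.18 SE, limma adjusted p = 0.0384), and its call was lost in 11 of 23 alternative settings, among them those without either LPS/IFNg array, with slide as a term and in the authors' table. Zbtb14, a repressor of Myc in mouse cells, had 4.76 and 5.58 with LPS/IFNg, against 5.80, 5.80 and 6.01 in untreated cells (-0.70 ± 0.25 SE, limma adjusted p = 0.0444). The groups did not overlap, but the LPS/IFNg arrays of Zbtb14 lay far apart and the call was lost in 16 of 24 alternative settings. Among those that did not pass, Zbtb7a, the factor LRF of blood lineages, had a difference of 0.98 (limma adjusted p = 0.363), Zbtb33, the methyl-DNA binder Kaiso, had -0.36, Zbtb17, the Myc partner Miz-1, had 0.17 and Zbtb18, a neuronal repressor, had -0.01. The lowest and highest differences among the 17 were -0.56 for Zbtb26 and 0.98 for Zbtb7a.

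**Figure D3:**
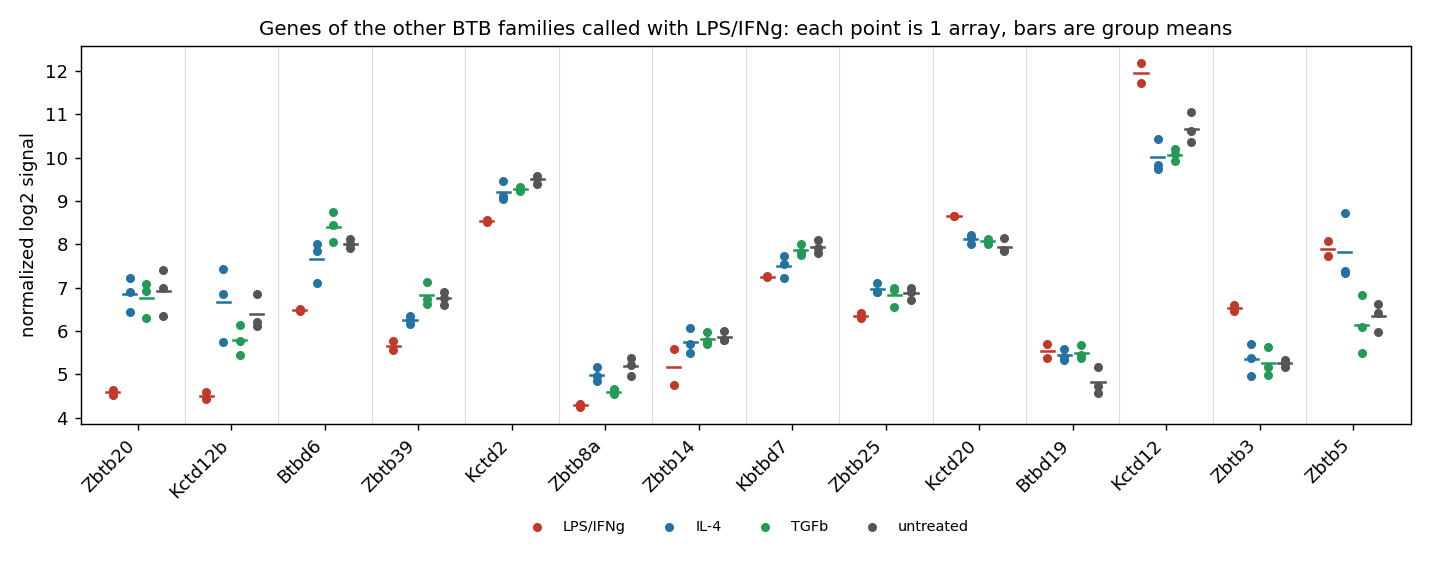
Normalized log2 signal (vertical axis) of the members outside Klhl called with LPS/IFNg (horizontal axis, from the lowest to the highest difference), with 1 point per array, bars for group means, and the groups LPS/IFNg, IL-4, TGFb and untreated from left to right within each gene. The 9 genes on the left fell and the 5 on the right rose. Of the 9, Zbtb8a is given as a description. Kctd12 and Kctd12b lie on opposite sides.

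Of the members, 6 were detected on exactly 2 arrays, namely Btbd7, Kbtbd6, Zbtb26, Zbtb32, Zbtb38 and Zbtb40, with mean log2 signals over all arrays of 4.75 to 5.03. Just outside, Klhl12, Klhl35, Btbd16, Zbtb46 and Zbtb6 were detected on 1 array, with means of 4.57 to 4.92.

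IL-4 and TGFb moved few members, and the Klhl genes were tested there, since the choice rested on the LPS/IFNg response; all 3 stimuli share the untreated arrays, so these tests are not independent of that choice. With IL-4, 1 of 60 members rose and 0 fell, beside 0.860% higher and 0.424% lower among all genes. At an unadjusted p below 0.05 the counts were 3 higher and 8 lower, beside 7.17% higher and 6.95% lower among all genes; 4 of the 8 were Klhl genes, whose choice also used the untreated arrays. The gene that rose was Btbd3, with 7.02, 6.04 and 6.42 on the IL-4 arrays, against 5.27, 5.09 and 5.19 on the untreated arrays (1.31 ± 0.22 SE, limma adjusted p = 0.0231), and its other probe rose by 1.43. All IL-4 arrays were above all untreated arrays, as they were for 905 of 8952 genes, while for 754 they were all below. IL-4 replicate 1, the array with the raised fibroblast and mural marker mean and the high Gja1 signal, was the highest. Without that array the difference was 1.05 (limma adjusted p = 0.022). The call was lost without IL-4 replicate 3 (adjusted p = 0.0612), without untreated replicate 1 (0.0758), without untreated replicate 3 (0.0931) and with slide as a term (0.108), all in limma.

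Deviations of same-numbered IL-4 and untreated arrays correlated at 0.401, 0.444 and 0.261, but the labels do not say that replicate numbers are pairs. With the replicate number as a block 2 members rose with IL-4, Btbd3 and Zbtb5, and the share of all genes in that fit is not given here. Zbtb5 had 8.73, 7.35 and 7.39 with IL-4, against 6.63, 5.99 and 6.42 in untreated cells, with no overlap, and a difference of 1.48 without the block (limma adjusted p = 0.118). IL-4 replicate 1 was also the highest array of the 11 for Zbtb5 and for Zbtb7a, which read 11.44 there, against 7.41 to 9.16 on the other 10 arrays.

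No Klhl gene passed the test with IL-4, and 10 of 13 had a lower mean than in untreated cells, with a median difference of -0.23, against 0.01 for all genes. Klhl24 had 9.68, 9.77 and 9.93 with IL-4, against 10.29, 10.36 and 10.44 in untreated cells, with no overlap (-0.57 ± 0.18 SE, limma adjusted p = 0.167). Klhl3 had -0.74, Klhl7 -0.72 and Klhl9 -0.59, none past the threshold. Of the members with the highest mean signal in families without a call, Kbtbd2 had a difference of 0.02, Kctd12 of -0.66 (limma adjusted p = 0.226) and Zbtb17 of -0.04, with no call.

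With TGFb, 0 of 60 members rose and 0 fell in limma, beside 0.614% higher and 0.369% lower among all genes, and 6 were higher and 2 lower at an unadjusted p below 0.05, beside 5.69% higher and 5.34% lower among all genes. Klhl25 had the highest difference, with 9.80, 10.18 and 9.84 on the TGFb arrays, against 8.28, 8.22 and 8.88 on the untreated arrays. The groups did not overlap (1.48 ± 0.44 SE), but the adjusted p was 0.173 in limma. All TGFb arrays were above all untreated arrays for 821 of 8952 genes. The 3 IL-4 arrays read 7.56, 9.35 and 9.55, and in the fit without IL-4 replicate 1, Klhl25 was called higher with TGFb. Klhl24 had 10.43, 10.50 and 10.98 with TGFb, against 10.29, 10.36 and 10.44 in untreated cells, a difference of 0.27 (limma adjusted p = 0.651). The median Klhl difference with TGFb was 0.15. Kbtbd2 had a difference of 0.33, Kctd12 of -0.60, Btbd1 of -0.07 and Zbtb17 of 0.32, without a call.

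IL-4 and TGFb, applied for the same time, could be compared directly, and 2 members were higher and 2 lower with IL-4, beside 3.92% higher and 4.66% lower among all genes. Both lower genes were Klhl genes. Klhl7 had 7.82, 7.73 and 7.91 with IL-4, against 8.51, 9.43 and 9.40 with TGFb (-1.29 ± 0.25 SE, limma adjusted p = 0.0105). Klhl24 had 9.68, 9.77 and 9.93 with IL-4, against 10.43, 10.50 and 10.98 with TGFb (-0.85 ± 0.18 SE, limma adjusted p = 0.0157), and the call was lost without TGFb replicate 3 (adjusted p = 0.0535). In both genes all IL-4 arrays were below all TGFb arrays, as they were for 1210 of 8952 genes, while for 1230 they were all above. Over all 13 Klhl genes 11 were lower with IL-4 and the median difference was -0.33, beside 47.8% lower and a median of 0.02 among all genes.

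Btbd3 had 7.02, 6.04 and 6.42 with IL-4, against 5.10, 5.27 and 5.06 with TGFb (1.35 ± 0.22 SE, limma adjusted p = 0.00487). Zbtb5 had 8.73, 7.35 and 7.39 with IL-4, against 6.83, 5.50 and 6.10 with TGFb (1.68 ± 0.41 SE, limma adjusted p = 0.0294). Both were higher on every IL-4 array, and the Zbtb5 call was lost without IL-4 replicate 1 (difference 1.23, adjusted p = 0.0581), without TGFb replicate 2 or without TGFb replicate 3. Within slide 1 or slide 2 alone no member was called in this comparison, with 0 higher and 0 lower.

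Setting LPS/IFNg against each of the other stimuli, which differ from it in time (16 h against 48 h), gave counts of both signs outside Klhl. Leaving out Btbd7 and Zbtb32, against IL-4, 3 of 45 members were higher and 8 lower, beside 16.4% higher and 23.5% lower among all genes. Against TGFb, 4 were higher and 8 lower, beside 17.8% higher and 24.2% lower. The shares of all genes in both comparisons still include genes detected only with LPS/IFNg. These comparisons share the LPS/IFNg arrays with the one against untreated cells. Zbtb32 was at least 4.14-fold higher than with IL-4 and at least 3.88-fold higher than with TGFb, again with no test. Kctd12 had 11.71 and 12.18 with LPS/IFNg, against 9.75, 9.84 and 10.44 with IL-4 and 10.19, 9.93 and 10.09 with TGFb, higher by 1.94 ± 0.26 and 1.88 ± 0.26 (SE; limma adjusted p = 0.000234 and 0.000225).

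Zbtb20 read 6.90, 7.23 and 6.45 with IL-4 and 7.08, 6.94 and 6.31 with TGFb, so that LPS/IFNg was at least 2.81-fold and at least 2.65-fold lower. Kctd12b was lower than with IL-4 by at least 2.47-fold and than with TGFb by at least 1.34-fold, and its call against TGFb was lost in 12 of 25 alternative settings. Btbd3 was at least 2.18-fold lower than with IL-4 (limma adjusted p = 0.000154). Btbd6 had 6.45 and 6.50 with LPS/IFNg, against 8.05, 8.45 and 8.74 with TGFb (-1.93 ± 0.27 SE, limma adjusted p = 0.00023). Btbd7, untested, was at least 1.94-fold higher than with IL-4, and Zbtb5 was 1.76 ± 0.46 higher than with TGFb (SE, limma adjusted p = 0.00958), a call that was lost without LPS/IFNg replicate 3. The median Klhl difference, as a description, was -0.82 against IL-4 and -1.52 against TGFb, beside -0.1 and -0.07 for all genes. With the 3 Klhl members undetected with LPS/IFNg set at their detection bound, the Klhl medians were -0.62 and -0.97.

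**Figure D4:**
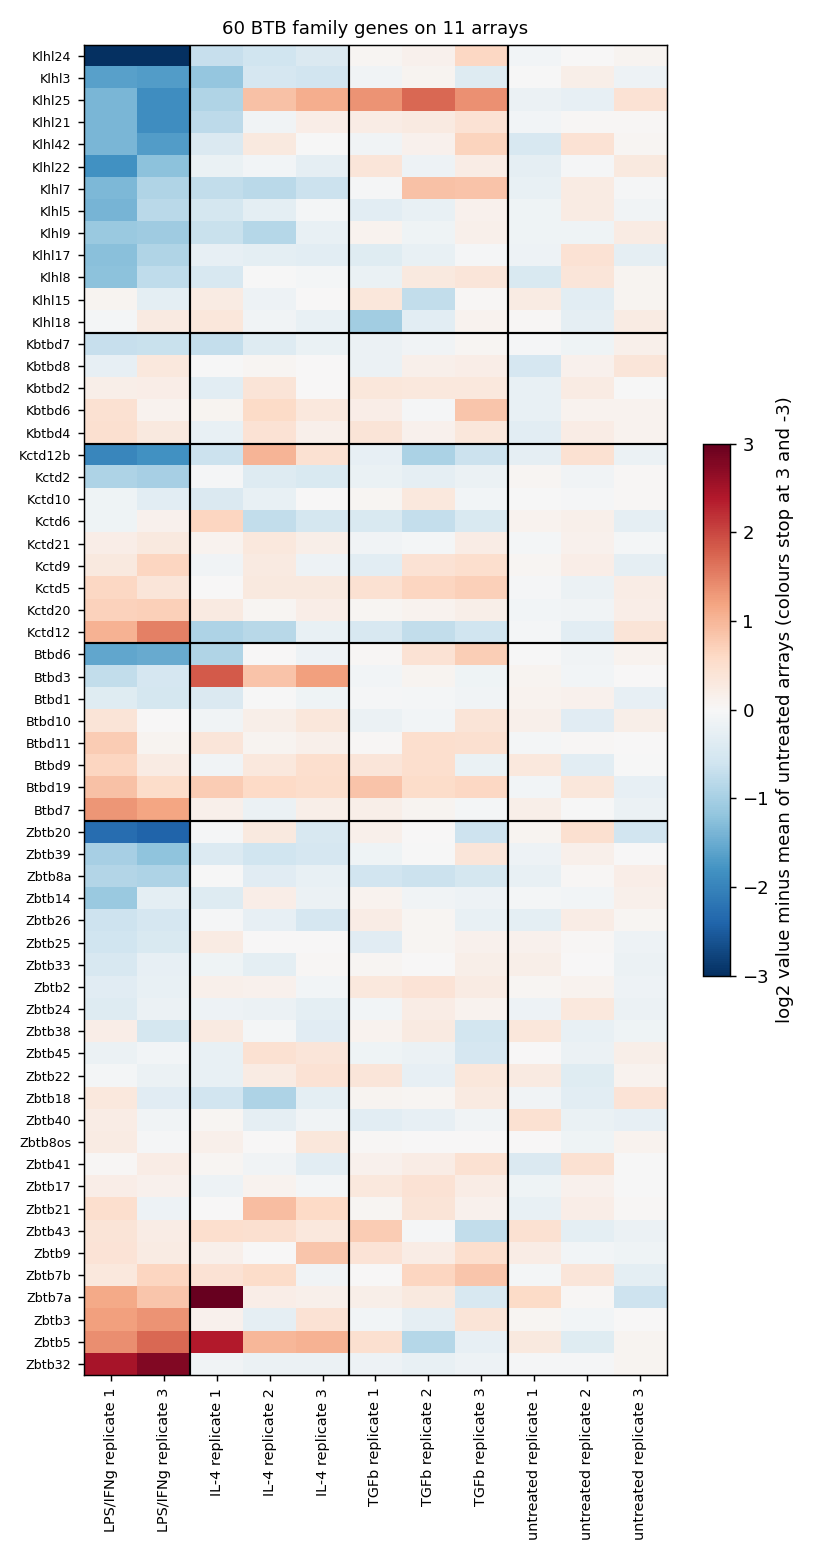
Log2 signal of the 60 members (rows, by family and within it by the LPS/IFNg minus untreated difference) on the 11 arrays (columns, LPS/IFNg first and untreated last), each minus the mean of the untreated arrays; red is higher and blue is lower. Of the 13 Klhl rows 12 are blue on average in the LPS/IFNg columns, the other families hold both colours there, and IL-4 replicate 1 stands out for Zbtb7a, Zbtb5 and Btbd3.

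The genes of the ligase machinery that Klhl and Kbtbd proteins join, listed with the Nedd8 pathway as a whole, had calls in both directions with LPS/IFNg. Of 26 listed genes for Cul3, its RING partner, the Nedd8 pathway and the COP9 signalosome, 21 could be tested; 3 rose (14.3%) and 2 fell (9.52%), beside 17.5% and 23.5% of all genes, and the median difference was 0.03. Cul3 itself averaged 10.83 ± 0.32 with LPS/IFNg (SD, n = 2) and 10.96 ± 0.18 in untreated cells (SD, n = 3), a difference of -0.14 (limma adjusted p = 0.573). Dcun1d3, a membrane-bound neddylation factor, rose by 1.34 (limma adjusted p = 0.000113), Cops5, the deneddylase subunit of the signalosome, by 0.83 (0.00374), and Ube2f, a Nedd8 conjugating enzyme, by 0.57 (0.0254). Dcun1d4 fell by 1.07 on the log2 scale (0.000201) and Nae1, a subunit of the Nedd8 activating enzyme, by 0.50 (0.0339).

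BTB genes with other names also went both ways with LPS/IFNg. Of 34 listed, 26 passed the detection filter, and 6 rose and 6 fell (23.1% each), beside 17.5% higher and 23.5% lower among all genes, with a median difference of 0.12. Of the 6 that rose, 1 was detected only with LPS/IFNg. That gene could pass the filter only by being high there, so its rise is a description with no test. Keap1, the Kelch adaptor that degrades NRF2, averaged 10.27 ± 0.001 with LPS/IFNg (SD, n = 2) and 8.61 ± 0.15 in untreated cells (SD, n = 3), 1.66 higher (limma adjusted p = 0.000103). Spop, a MATH-BTB adaptor, rose by 0.91 (0.00225). Rcbtb2 averaged 5.39 ± 0.61 with LPS/IFNg (SD, n = 2) and 9.78 ± 0.68 in untreated cells (SD, n = 3), a fall of 4.39 log2 units (0.00014), with 1 of 2 LPS/IFNg arrays detecting it. Ivns1abp, an influenza NS1-binding Kelch protein, fell by 2.02 on the log2 scale (0.000864) and Abtb1 fell by 1.75 (0.000214). Neither list had a call with IL-4 or TGFb.

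Substrate adaptors of other cullins were read the same way. Of 38 F-box genes (Fbxo, Fbxl and Fbxw) 8 rose (21.1%) and 11 fell (28.9%), beside 17.5% and 23.5% of all genes, with a median difference of -0.25; Fbxl5, a regulator of iron-responsive proteins, rose by 1.69, Fbxw17 by 1.47 and Fbxl15 by 0.77, while the fallers with the largest changes were Fbxo21 (-2.33), Fbxo31 (-2.32) and Fbxw4 (-2.24). With TGFb 1 F-box gene rose, Fbxo32 by 0.91 (limma adjusted p = 0.0495), chosen after its value was seen. Of 11 Dcaf genes, which serve Cul4, 2 rose and 2 fell (18.2% each, median -0.05): Dcaf15 had 1.51 and Dcaf13 0.77, while Dcaf7 had -0.53 and Dcaf6 was at least 2.83-fold lower. Of 7 Asb genes 4 rose and 1 fell (57.1% and 14.3%, median 0.89), among them Asb2, a SOCS-box adaptor for filamins, which rose by 2.35 (limma adjusted p = 9.27e-05); Asb10 was at least 1.74-fold lower. The families differ in size, and these medians are descriptions beside the all-gene median of -0.07.

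Promoters were read because most Klhl members were lower together and because Zbtb32 and Zbtb20 had the highest and the lowest differences outside Klhl. RefSeq windows (GRCm38.p6, 250 bases before to 50 after a start) were found for 51 of 60 members, with 74 windows. Shown 5′ to 3′ on the gene's strand are the bases before 1 start each of Klhl21 (chr4:152008681-152008890, + strand), Klhl22 (chr16:17759431-17759640, + strand) and Klhl18 (chr9:110476695-110476904, - strand), the last being a Klhl gene that was not lower, and of Zbtb20 (chr16:43247074-43247283, + strand) and Zbtb32 (chr7:30598910-30599119, - strand). Capitals mark matches on either strand to CCGGAAG (an ETS site), GAAANNGAA (an interferon response element core) or TGANTCA (an AP-1 site), which do not overlap each other here.
Klhl21: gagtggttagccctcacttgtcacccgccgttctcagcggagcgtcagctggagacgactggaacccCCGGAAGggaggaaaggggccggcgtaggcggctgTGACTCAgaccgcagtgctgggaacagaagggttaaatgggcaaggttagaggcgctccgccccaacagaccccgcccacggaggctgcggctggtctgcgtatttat
Klhl22: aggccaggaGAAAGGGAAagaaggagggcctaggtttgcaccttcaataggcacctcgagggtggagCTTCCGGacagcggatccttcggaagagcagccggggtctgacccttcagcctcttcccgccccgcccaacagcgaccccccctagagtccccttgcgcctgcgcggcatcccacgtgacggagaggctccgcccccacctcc
Klhl18: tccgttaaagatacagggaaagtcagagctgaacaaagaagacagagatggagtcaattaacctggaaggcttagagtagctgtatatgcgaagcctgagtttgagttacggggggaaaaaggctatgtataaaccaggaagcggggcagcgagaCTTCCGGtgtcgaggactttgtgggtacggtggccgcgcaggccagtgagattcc
Zbtb20: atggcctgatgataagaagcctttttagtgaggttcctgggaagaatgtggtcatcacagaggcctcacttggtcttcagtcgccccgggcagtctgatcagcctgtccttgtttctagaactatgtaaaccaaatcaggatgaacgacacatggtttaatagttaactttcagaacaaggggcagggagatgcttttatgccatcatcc
Zbtb32: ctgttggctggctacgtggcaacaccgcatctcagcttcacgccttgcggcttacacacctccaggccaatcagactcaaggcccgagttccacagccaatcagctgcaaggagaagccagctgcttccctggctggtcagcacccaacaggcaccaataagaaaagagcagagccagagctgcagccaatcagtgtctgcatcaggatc

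The letters CCGGAAG were in 4 of 12 Klhl windows (33.33%) and in 16 of 74 windows of all members (21.62%), beside 18.56% of windows of all genes tested and 8.86% of all 32851 windows. The 4 Klhl windows belong to Klhl18, Klhl21 and Klhl22, which has 2 overlapping windows with the same match. GAAANNGAA was in 7 windows of members (9.46%), beside 7.2% of those of genes tested; TTCNNNGAA (a STAT site) in 2 (2.7%), beside 6.99%; TGANTCA in 5 (6.76%), beside 5.07%; and the NF-kB site in 6 (8.11%), beside 8.23%. The printed Zbtb32 stretch, from the gene with the highest difference with LPS/IFNg, holds no match to any of the 5 motifs. The median number of CpG pairs per window was 24 for members and 20 for genes tested.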

How the data were processed

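RNA of 11 microglia samples was measured on Illumina mouse arrays. The deposited scanner table holds, per the file headers, an intensity (mean bead signal, linear and not normalized between arrays) and a detection p-value for 45281 probes per array. The authors' deposited value table holds log2 values; the submitters' processing notes name Partek, and how it was used is not stated there. It served as an alternative only.

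The neqc function (limma 3.58.1, R 4.3.3) corrected intensities for background inferred from the detection p-values, added an offset of 16, quantile normalized them and took log2. Probes detected at p below 0.01 on 2 or more arrays were kept, and each gene took its brightest passing probe by mean over arrays, which left 8952 genes; 26 members had more than 1 passing probe. Gene names came from GEO's platform annotation, where 34885 probes have 1 symbol, 18 several and 10378 none; an update through RefSeq identifiers changed 0. A limma model (lmFit, eBayes) held a mean for each group over the 11 arrays, with 7 residual degrees of freedom and 3.52 from the prior; 6 contrasts were tested, and p-values were adjusted by Benjamini-Hochberg over all genes. The code was tested on simulated data. The number of arrays limits the precision.

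Where no array of the lower group detected the probe, its signal there is an upper limit, and the text gives "at least N-fold": the higher group's mean against a ceiling for the lower group, averaged over arrays, which is the lowest detected signal on an array unless the probe itself reads above it. Alternatives covered background, scaling, the authors' values, the filter on dim probes, the probe rule, the slide, the replicate block and each array left out; testing every passing probe and slide 1 alone were added after the data were seen.

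The members, the related gene lists, the motifs and the rule for genes given in full were chosen with earlier results of these data known. That rule took the 6 lowest and 3 highest Klhl differences with LPS/IFNg, up to 4 called genes in each direction per family, or the brightest member where none was called, up to 3 in each direction between stimuli and per related list, and members whose probes disagree; other members appear with their difference only, and Klhl25 with TGFb, Zbtb5 with IL-4 and Zbtb25 were added after their values were seen. Over genes, deviations of same-numbered replicates correlated at 0.401, 0.444 and 0.261 for IL-4 and untreated, and the replicate block is given beside that comparison. Correlations were also positive in every pair for IL-4 and TGFb (0.263, 0.088 and 0.134) and for LPS/IFNg and TGFb (0.235 and 0.369). They were of both signs for TGFb and untreated (0.485, 0.111 and -0.099) and for LPS/IFNg and untreated (0.202 and -0.156). For LPS/IFNg and IL-4 they were -0.013 and -0.042. Promoter sequences and gene identities are from RefSeq, GRCm38.p6. A gene of the related lists that the rule would name is not reported here. Btbd7 and Zbtb32 were set apart from the LPS/IFNg tests after the data were seen, because only LPS/IFNg arrays detected them. No such genes were taken out of the counts of the related lists or of all genes. Zbtb8a, which needed the untreated arrays to pass the filter, was kept in the counts of members.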

Additional observations from a re-analysis of the deposited data

How the results depend on the processing

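Of 1192 values of named genes under the alternatives, 1087 kept direction and side of the threshold or moved by less than the replicate spread, 79 lost a call, 1 gained one, 23 untested Klhl values moved and 2 turned sign. Using slide 2 alone gave 5 members outside Klhl called lower with LPS/IFNg than in untreated cells (9 in the reported fit), 3 lower and 2 higher than with IL-4 (8 and 5), 2 lower than with TGFb (8), 0 called either way for IL-4 minus TGFb (2 and 2) and 0 higher for IL-4 minus untreated (1). Slide 1 alone gave 1 lower and 2 higher against IL-4, 1 lower and 3 higher against TGFb, and 0 and 0 for IL-4 minus TGFb; both use fewer arrays. Members higher with IL-4 than untreated numbered 0 without background correction, 0 with slide as a fixed block and 2 with the replicate block. The replicate block moved no other count by over 1.5 times, and it added Klhl9 to the members called lower for IL-4 minus TGFb. For IL-4 minus TGFb, members called lower numbered 1 under median scaling and 6 in the authors' table, and members called higher 1 without background correction and 1 without a filter on dim probes. The authors' table called 2 members higher with TGFb than untreated, Kctd5 and Klhl24, against 0. The causes were not tested. The Klhl median with LPS/IFNg was -0.69 without background correction, -1.39 under median scaling and -0.67 in the authors' table; the Btbd median was 0.033 under median scaling, which moved the median of all genes to -0.22. Klhl18 then turned to -0.25, and the second probe of Klhl25 had 0.35.

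Leaving out 1 array at a time gave 6 to 12 members outside Klhl lower and 5 to 9 higher with LPS/IFNg than untreated, 0 to 1 higher with IL-4 and 0 to 1 higher with TGFb than untreated, 5 to 8 lower and 4 to 6 higher for LPS/IFNg minus IL-4, 4 to 11 lower and 4 to 8 higher for LPS/IFNg minus TGFb, and 1 to 3 lower and 1 to 3 higher for IL-4 minus TGFb. All these counts with LPS/IFNg and the Btbd median include Btbd7 and Zbtb32. The fits that kept both LPS/IFNg arrays called 1848 to 2277 of all 8952 genes lower and 1348 to 1732 higher with LPS/IFNg than untreated. The fit without IL-4 replicate 1 gave the highest counts for members (12 and 9) and for all genes (2277 and 1732). For the other comparisons the counts over all genes in these fits are not given here. With 2 or 3 arrays per group a lone array is assumed to vary like the other groups, and dim probes limit what can be measured: 10 of 47 members outside Klhl were undetected in the lower group of LPS/IFNg minus untreated.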
